A study of Homo sapiens with 18 samples.

Results

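LNCaP cells with FOXA1 knocked down and treated with the HIF1A inhibitor KC7F2 were compared with LNCaP cells carrying the control vector and no inhibitor, which shows the net state of the 2 treatments together. LNCaP is an established human prostate cancer line that responds to androgen. The 2 groups of 3 libraries make up 6 of the 18 libraries of the series, and the comparison covers the 12900 of 26443 genes that reached 1 RPKM (reads per kilobase of gene, scaled to the size of the library) in at least 3 of the 18. The shFOXA1 + KC7F2 cells carried an shRNA against FOXA1, were infected with lentivirus for 5 days and took 40 µM KC7F2 during the last 24 h. The control cells carried the pGIPZ vector with its control shRNA for the same 5 days and took no KC7F2. Both groups, and all others in the series, also had 100 µM CoCl2 for the last 24 h, so there is no normoxic group and every value belongs to cells under chemical hypoxia. Single-treatment groups, 3 libraries each, are set beside them: shFOXA1 without KC7F2, and pGIPZ with KC7F2. Nothing in the labels says that the triplicates were grown apart, so the p-values speak only of the scatter among these libraries, which may be technical. The labels also do not give the KC7F2 vehicle, or whether 1 or more FOXA1 hairpins were used.

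FOXA1 is a pioneer factor of the forkhead family: it opens chromatin at the enhancers that answer androgen, and it holds luminal prostate cells in their differentiated state. HIF1A, degraded while oxygen is plentiful, belongs to a transcription factor pair that switches on glycolysis, angiogenesis and glycogen genes, and cobalt ions keep its protein from being degraded. KC7F2 is a small molecule known for lowering HIF1A protein by blocking its translation, so HIF1A mRNA cannot show whether the inhibitor worked. NRF2 (gene NFE2L2) is the transcription factor that answers oxidants and electrophiles by switching on glutathione, thioredoxin and NADPH genes.

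The shFOXA1 + KC7F2 libraries held between 6.72 and 9.23 megareads and the pGIPZ libraries between 10.4 and 11.6 megareads, as recovered from the spacing of the lowest values in each library, so low genes carry more counting error in the treated cells. Replicates correlated at 0.967 to 0.972 within shFOXA1 + KC7F2 and at 0.961 to 0.976 within pGIPZ, as Pearson's r across genes, which are not independent replicates. pGIPZ replicate 1 had more signal in short genes than its 2 fellow replicates, a log2 gap between short and long genes of 0.49 against -0.12 to 0.06, and the shFOXA1 + KC7F2 libraries lay between -0.17 and -0.02. The prostate line's own markers were all present: their summed level was 1397 to 1516 RPKM in shFOXA1 + KC7F2 and 1655 to 2116 RPKM in pGIPZ. All 5 leukocyte markers stayed below 1 RPKM in every library, with sums of 0.0384 to 0.438 RPKM in shFOXA1 + KC7F2 and 0.126 to 0.434 RPKM in pGIPZ. Endothelial markers summed to 0.354 to 0.563 RPKM in shFOXA1 + KC7F2 against 0.548 to 0.794 RPKM in pGIPZ, fibroblast markers to 2.22 to 3.55 RPKM in shFOXA1 + KC7F2 and 2.55 to 3.47 RPKM in pGIPZ, and neuroendocrine markers to 0.544 to 0.722 RPKM in shFOXA1 + KC7F2 and 0.54 to 1.14 RPKM in pGIPZ. In these bulk samples fewer cells of a kind and less RNA per cell cannot be told apart.

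The target gene checked the labels. FOXA1 (chromosome 14, 37589984 to 37596059, hg38, minus strand) stood at 41.2, 42.6 and 34.03 RPKM in shFOXA1 + KC7F2, against 71.6, 114 and 107 RPKM in pGIPZ. All 3 treated libraries lay below all 3 controls, and the transcript kept 41.2% of its control level on the log2(RPKM + 0.5) scale used throughout (log2 fold change -1.28 ± 0.16, adjusted p = 1.8e-05, limma across 12900 genes; ± is the SE beside a log2 fold change and the SD of 3 libraries beside an RPKM). shFOXA1 alone stood at 34.1 ± 1.51 RPKM (SD, n = 3), and adding KC7F2 left no detectable difference from it (log2 fold change 0.19, adjusted p = 0.62). HIF1A mRNA (chromosome 14, 61695513 to 61748259, plus strand) was 69.9, 67.98 and 50.6 RPKM in shFOXA1 + KC7F2, against 13.96, 27.3 and 27.99 RPKM in pGIPZ. The HIF1A transcript was thus higher in each treated library than in any control (log2 fold change 1.48 ± 0.23, adjusted p = 1.8e-04). It was 89.9 ± 8.998 RPKM in shFOXA1 alone and 17.3 ± 5.18 RPKM in pGIPZ + KC7F2. The difference of shFOXA1 + KC7F2 from shFOXA1 missed the threshold at -0.52 ± 0.23 (limma adjusted p = 0.28). It passed the threshold only when the 3 libraries with more short-gene signal were left out. None of those belongs to either group, so the difference stayed at -0.52 and only the shared estimate of spread changed.

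Set against untreated control cells, the combined treatment left a cell with less androgen programme and less of the dividing-cell programme, and with more squamous, antioxidant and desaturase mRNA. Of the 12900 genes, 1298 (10.1%) rose and 2241 (17.4%) fell at an adjusted p below 0.05, and 299 (2.32%) and 399 (3.09%) did so by at least 2-fold. With each library rescaled to a common median ratio the split was 1702 up and 1851 down, and with quantile normalisation 1760 and 1817, so the excess of falls depends on the scaling; the median of all genes was -0.07 on the log2 scale without it. Libraries of the 2 groups did not overlap for 1953 genes (15.1%) that were higher and 2947 (22.8%) that were lower, so such separation alone is common. Counts and medians of gene groups are read against these backgrounds.

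The 10 largest rises were between 2.75 and 3.56 on the log2 scale. RGS4, which quenches G protein signals, was at 15.8, 16.7 and 16.4 RPKM in shFOXA1 + KC7F2 and 1.04, 0.846 and 0.902 RPKM in pGIPZ (log2 fold change 3.56 ± 0.15, adjusted p = 1.2e-10). ENC1, an actin-binding kelch protein, was at 71.4, 69.7 and 68.2 RPKM in shFOXA1 + KC7F2 and 5.78, 6.42 and 6.48 RPKM in pGIPZ (log2 fold change 3.39 ± 0.08, adjusted p = 1.1e-13). S1PR3, a receptor for sphingosine 1-phosphate, was at 79.3, 74.2 and 62.3 RPKM in shFOXA1 + KC7F2 and 5.38, 7.55 and 7.64 RPKM in pGIPZ (log2 fold change 3.31 ± 0.14, adjusted p = 1.2e-10). In all 3 genes the treated libraries sat far above the controls, and lack of overlap was a condition for the 10 largest rises and falls. WNT11, a secreted WNT ligand, reached 6.32, 5.35 and 4.5 RPKM in shFOXA1 + KC7F2 and was nearly silent in pGIPZ at 0.0457, 0.0896 and 0 RPKM. CRYAB, a small heat shock protein, averaged 28.5 ± 1.42 RPKM in shFOXA1 + KC7F2 and 2.57 ± 1.005 RPKM in pGIPZ (SD, n = 3 each), and the homeobox factor IRX3 averaged 47.3 ± 5.53 RPKM in shFOXA1 + KC7F2 and 4.78 ± 0.324 RPKM in pGIPZ. The membrane carbonic anhydrase CA4 averaged 5.78 ± 0.577 RPKM in shFOXA1 + KC7F2 and 0.356 ± 0.239 RPKM in pGIPZ. S100A9, SAA1 and AKR1B10, also among the 10 largest, are described with their gene groups.

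Of the 10 largest falls 6 belong to the list of androgen targets. TARP, a transcript from the T cell receptor gamma locus that prostate cells make under androgen, was at 0.741, 0.291 and 1.11 RPKM in shFOXA1 + KC7F2 and 34.96, 39.4 and 35.1 RPKM in pGIPZ (log2 fold change -4.99 ± 0.21, adjusted p = 1.3e-10); it overlaps other annotated transcripts, so its reads may be shared. The TARP libraries of the 2 groups did not come near each other. S100P, a calcium-binding protein, averaged 3.27 ± 0.518 RPKM in shFOXA1 + KC7F2 and 54.5 ± 21.7 RPKM in pGIPZ, and the imprinted zinc finger gene PEG3 averaged 0.803 ± 0.1798 RPKM in shFOXA1 + KC7F2 and 9.195 ± 0.853 RPKM in pGIPZ. ADAM7, a membrane protein of the epididymis, averaged 0.438 ± 0.0814 RPKM in shFOXA1 + KC7F2 and 6.37 ± 0.752 RPKM in pGIPZ. SLC45A3, HPGD, UGT2B11, UGT2B28 and ACPP are the other 5 androgen targets among the 10.

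**Figure D1:**
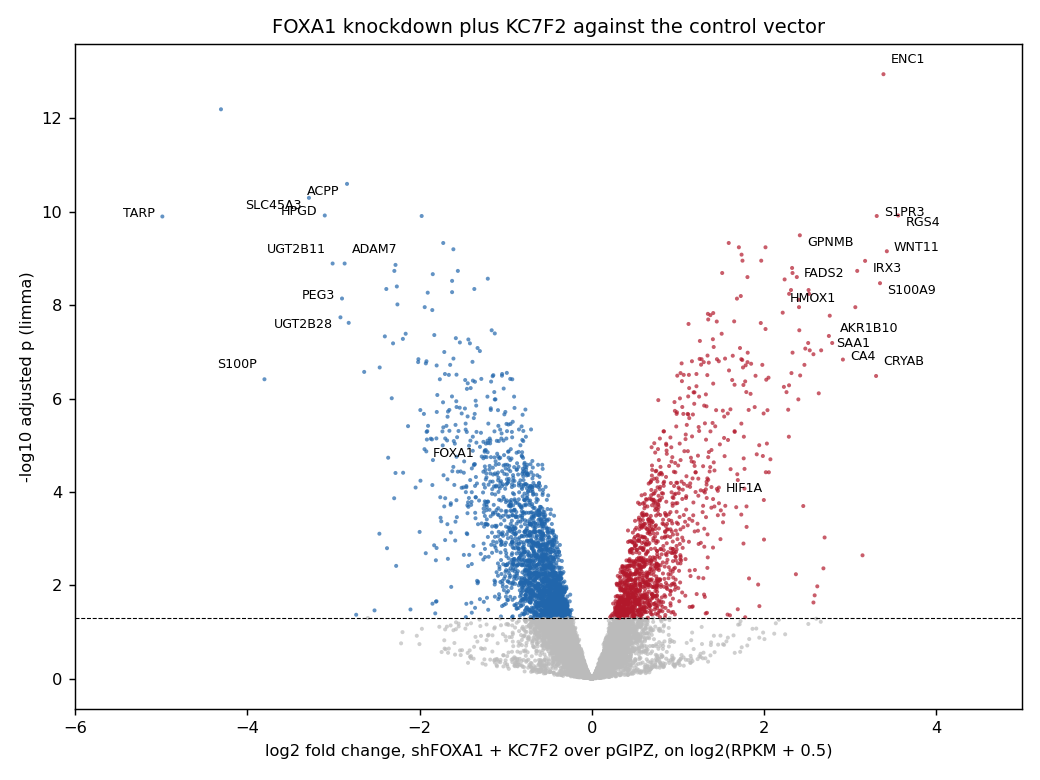
Each point is 1 of 12900 genes: the x axis is the log2 fold change of shFOXA1 + KC7F2 over pGIPZ on log2(RPKM + 0.5), the y axis -log10 of limma's adjusted p, and the dashed line marks 0.05. Red points rose and blue points fell; the 10 largest rises and 9 of the 10 largest falls chosen by the naming rule are labelled together with FOXA1, HIF1A and 3 members of gene lists.

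Androgen targets fell in their majority. Of 32 tested members, 21 fell and 4 rose, with a median log2 fold change of -0.73 against -0.07 for all genes, and against 17.4% and 10.1% of all genes called in each direction. The solute carrier SLC45A3, also called prostein, was at 11.3, 10.7 and 9.62 RPKM in shFOXA1 + KC7F2 and 93.5, 119 and 109.9 RPKM in pGIPZ (log2 fold change -3.29 ± 0.13, adjusted p = 5.0e-11). ACPP, prostatic acid phosphatase, was at 3.901, 3.68 and 3.17 RPKM in shFOXA1 + KC7F2 and 29.04, 27.8 and 29.3 RPKM in pGIPZ (log2 fold change -2.84 ± 0.10, adjusted p = 2.5e-11). In both genes the treated libraries kept about 10.3% and 13.9% of the control level. HPGD, which degrades prostaglandins, averaged 0.958 ± 0.189 RPKM in shFOXA1 + KC7F2 and 11.9 ± 0.731 RPKM in pGIPZ. The glucuronosyltransferase genes UGT2B11 and UGT2B28 fell too, by 3.01 and 2.92 on the log2 scale. These paralogs are close in sequence and may share reads. KLK3, the gene for prostate-specific antigen, was at 618, 585 and 689 RPKM in shFOXA1 + KC7F2 and 958, 769.9 and 711 RPKM in pGIPZ. The KLK3 libraries did not overlap, but the difference just missed the threshold (log2 fold change -0.36 ± 0.13, adjusted p = 0.055) and passed it under 4 other settings of the fit, while quantile normalisation gave 0.04 (adjusted p = 0.71). The 4 members that rose were TRPM8, FKBP5, ZBTB16 and STEAP2, with log2 fold changes of 0.98, 0.69, 0.65 and 0.40. In shFOXA1 against pGIPZ 19 of the 32 tested members fell and 5 rose (median -0.53), where 14.6% of all genes fell. In pGIPZ + KC7F2 against pGIPZ 18 of the 32 fell and 0 rose (median -0.50), where 0.992% of all genes fell. Both comparisons share the 3 control libraries.

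Other transcription factors of the luminal state moved in both directions. SPDEF, an ETS factor of secretory epithelium, averaged 15.05 ± 1.39 RPKM in shFOXA1 + KC7F2 and 74.4 ± 9.496 RPKM in pGIPZ (log2 fold change -2.26 ± 0.13, adjusted p = 4.0e-09), and ETV1 averaged 9.73 ± 0.138 RPKM in shFOXA1 + KC7F2 and 22.02 ± 2.26 RPKM in pGIPZ. FOXO3 and NFIB rose, by 1.25 and 1.25 on the log2 scale. Of the 14 tested forkhead and partner factors 6 fell, FOXA1 among them, and 2 rose (median -0.11), and of 21 luminal epithelial markers 6 fell and 4 rose (median -0.07); both medians turned above 0 with quantile normalisation, and the luminal one also with median-ratio scaling and without pGIPZ replicate 1 or 2. The prostate stem cell antigen gene PSCA fell by 1.17 and GRHL2, an epithelial factor, rose by 0.83 on the log2 scale. Among mesenchymal markers 3 of 11 rose and 2 fell (median 0.00): the matrix proteins FN1 and THBS1 rose by 1.46 and 1.25, SNAI2 rose by 1.03, and SNAI1 and VIM fell by 0.68 and 0.51. Without shFOXA1 + KC7F2 replicate 1 or without pGIPZ replicate 2 no mesenchymal marker fell.

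All 34 genes of mitosis and DNA replication fell, with a median log2 fold change of -1.33. NUSAP1, a spindle microtubule protein, was at 3.37, 3.23 and 3.63 RPKM in shFOXA1 + KC7F2 and 13.1, 16.2 and 14.4 RPKM in pGIPZ (log2 fold change -1.94 ± 0.13, adjusted p = 1.1e-08). RRM2, the ribonucleotide reductase subunit that limits DNA precursors, was at 4.08, 4.39 and 3.56 RPKM in shFOXA1 + KC7F2 and 20.5, 19.3 and 19.2 RPKM in pGIPZ (log2 fold change -2.16 ± 0.16, adjusted p = 4.1e-08). TOP2A, the topoisomerase that untangles chromosomes, was at 2.89, 3.09 and 3.57 RPKM in shFOXA1 + KC7F2 and 9.79, 9.65 and 9.61 RPKM in pGIPZ (log2 fold change -1.47 ± 0.13, adjusted p = 4.0e-07). The treated libraries of all 3 genes lay below the controls without overlap. BUB1B, a spindle checkpoint kinase, averaged 2.02 ± 0.274 RPKM in shFOXA1 + KC7F2 and 6.37 ± 0.307 RPKM in pGIPZ. The smallest fall in the list was that of MCM3, a subunit of the replicative helicase, at -0.55, and the largest that of AURKB, the kinase of chromosome alignment, at -2.19. The single treatments are given beside it: the same 34 genes had a median of -1.30 with 34 falls in shFOXA1 against pGIPZ, where 14.6% of all genes fell, and of -0.08 with 0 falls in pGIPZ + KC7F2 against pGIPZ, where 0.992% of all genes fell, comparisons that share the 3 control libraries. Against shFOXA1 alone, shFOXA1 + KC7F2 had 0 limma calls in this list, 3 of 34 with an unadjusted p below 0.05, and a median of -0.05; for pGIPZ + KC7F2 against pGIPZ 4 of 34 had such an unadjusted p.

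Most NRF2 targets rose. Of 26 tested members, 20 rose and 0 fell (median 0.81), and no alternative setting of the fit moved the count of rises by over 1.5 times. They cover glutathione synthesis, thioredoxin recycling, NADPH supply, haem and iron handling and carbonyl reduction. In pGIPZ + KC7F2 against pGIPZ 15 of the 26 rose and 0 fell (median 0.64), so most of the list rose with KC7F2 alone too. In shFOXA1 against pGIPZ 7 of the 26 rose and 3 fell (median 0.06). These comparisons share the 3 control libraries. Promoter letters of 3 members that rose are shown because they hold the antioxidant response element, the sequence that NRF2 binds with a small MAF partner. Each run is the 250 bases before the RefSeq gene start (GRCh38.p14), 5′ to 3′ on the gene's own strand, and capitals mark matches of TGACNNNGC on either strand: GCLM (chr1:93909431-93909680, minus strand), TXNRD1 (chr12:104215529-104215778, plus strand) and ME1 (chr6:83431052-83431301, minus strand).
GCLM: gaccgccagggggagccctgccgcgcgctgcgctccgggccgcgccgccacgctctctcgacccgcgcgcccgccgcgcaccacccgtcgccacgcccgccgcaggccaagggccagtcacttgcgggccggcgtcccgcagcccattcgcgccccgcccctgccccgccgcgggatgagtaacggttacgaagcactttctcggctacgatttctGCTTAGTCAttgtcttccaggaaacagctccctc
TXNRD1: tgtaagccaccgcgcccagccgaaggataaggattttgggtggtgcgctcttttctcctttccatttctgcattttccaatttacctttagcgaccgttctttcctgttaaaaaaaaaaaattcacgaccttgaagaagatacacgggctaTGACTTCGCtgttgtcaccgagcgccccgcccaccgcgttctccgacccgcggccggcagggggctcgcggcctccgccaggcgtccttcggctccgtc
ME1: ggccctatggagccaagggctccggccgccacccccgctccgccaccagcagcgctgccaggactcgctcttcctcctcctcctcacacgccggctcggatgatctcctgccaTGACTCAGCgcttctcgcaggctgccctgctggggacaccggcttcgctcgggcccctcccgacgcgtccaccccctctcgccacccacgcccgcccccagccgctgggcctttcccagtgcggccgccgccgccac
The match begins at position -34 from the gene start in GCLM, at -99 in TXNRD1 and at -137 in ME1. Of the 19 NRF2 targets with a RefSeq promoter, 4 held such a match (21.1%), the fourth being PGD, against 11% of all 27305 promoters of the same length. The forkhead core and the sterol response element were scanned over the same length. The forkhead core was found in 1 of 21 promoters of androgen targets (4.76%), against 6.05% of all promoters. The sterol response element was found in 0 of 12 promoters of fatty acid genes. It was found in 1 of 18 promoters of cholesterol genes (5.56%), against 0.125% of all promoters. A match is a description of letters, and no match here says nothing of elements farther away.

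GCLM and GCLC make the enzyme that limits glutathione synthesis. GCLM was at 32.6, 34.4 and 31.4 RPKM in shFOXA1 + KC7F2 and 12.8, 12.7 and 10.8 RPKM in pGIPZ (log2 fold change 1.41 ± 0.10, adjusted p = 5.4e-08), and shFOXA1 and pGIPZ + KC7F2 averaged 15.7 ± 1.29 and 19.4 ± 1.57 RPKM. GCLC averaged 26.4 ± 0.286 RPKM in shFOXA1 + KC7F2, 19.4 ± 0.795 in shFOXA1, 14.3 ± 0.314 in pGIPZ + KC7F2 and 11.6 ± 1.39 RPKM in pGIPZ (log2 fold change 1.16 ± 0.09, adjusted p = 1.6e-07, shFOXA1 + KC7F2 against pGIPZ). Both subunits had their highest mean where the 2 treatments met. TXNRD1, thioredoxin reductase, was at 350, 360 and 342 RPKM in shFOXA1 + KC7F2 and 165, 185 and 178 RPKM in pGIPZ (log2 fold change 0.99 ± 0.09, adjusted p = 3.2e-07). HMOX1, which opens the haem ring and frees iron, was at 87.1, 80.6 and 97.9 RPKM in shFOXA1 + KC7F2 and 18.4, 19.8 and 17.6 RPKM in pGIPZ (log2 fold change 2.22 ± 0.15, adjusted p = 1.4e-08). For HMOX1 shFOXA1 alone stood as high, at 89.5 ± 9.51 RPKM, and pGIPZ + KC7F2 stood at 21.2 ± 2.67 RPKM. SLC7A11, the cystine importer, was ordered differently: 45.01 ± 2.04 RPKM in shFOXA1 + KC7F2, 15.2 ± 1.16 in shFOXA1, 46.4 ± 3.25 in pGIPZ + KC7F2 and 26.1 ± 3.92 in pGIPZ. The carbonyl reductase AKR1B10 was at 6.27, 4.96 and 6.72 RPKM in shFOXA1 + KC7F2 and 0.662, 0.433 and 0.243 RPKM in pGIPZ (log2 fold change 2.79 ± 0.21, adjusted p = 6.5e-08), and stood between them in either single treatment, at 1.73 RPKM in shFOXA1 and 1.42 RPKM in pGIPZ + KC7F2. AKR1C1, AKR1C2 and AKR1C3 rose by 2.02, 1.38 and 2.47 on the log2 scale; these steroid reductases are near-identical and their reads may be split among them. PGD, a dehydrogenase of the pentose phosphate pathway, and the malic enzyme ME1 supply NADPH, and they rose by 0.78 and 0.70. The 6 members that were not called had log2 fold changes up to 0.25 for UGDH, and FTL, the ferritin light chain, was at 0.18 (adjusted p = 0.33).

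Most of the tested genes of fatty acid synthesis and desaturation rose, and those of cholesterol synthesis did not move as 1 group in the combined treatment. Of 13 fatty acid genes 7 rose and 2 fell (median 0.74). In pGIPZ + KC7F2 against pGIPZ 5 of the 13 rose and 2 fell (median 0.59). In shFOXA1 against pGIPZ 3 of the 13 rose and 1 fell (median -0.03). SCD, which puts the double bond into oleate, was at 147, 133 and 134 RPKM in shFOXA1 + KC7F2 and 33.3, 43.6 and 49.3 RPKM in pGIPZ (log2 fold change 1.72 ± 0.13, adjusted p = 8.3e-08). FADS2, the first desaturase of polyunsaturated fats, was at 287, 260.1 and 224 RPKM in shFOXA1 + KC7F2 and 42.6, 51.9 and 52.4 RPKM in pGIPZ (log2 fold change 2.38 ± 0.13, adjusted p = 2.5e-09). No treated library of either gene overlapped a control library. FADS2 averaged 168 RPKM in shFOXA1 and 88.2 RPKM in pGIPZ + KC7F2, while SCD averaged 34.9 RPKM in shFOXA1 and 114 RPKM in pGIPZ + KC7F2. SREBF1, the master factor of lipogenesis, averaged 143 ± 11.1 RPKM in shFOXA1 + KC7F2 and 51.4 ± 5.66 RPKM in pGIPZ (log2 fold change 1.47 ± 0.12, adjusted p = 1.6e-07). ACSL3, which activates fatty acids and is also an androgen target, fell by 0.92, and ACLY fell by 0.57. CPT1A, which admits fatty acids to mitochondria for burning, was at 27.5, 24.2 and 25.6 RPKM in shFOXA1 + KC7F2 and 71.3, 69.2 and 61.2 RPKM in pGIPZ (log2 fold change -1.36 ± 0.08, adjusted p = 4.5e-09). Of 23 cholesterol genes 4 rose and 6 fell (median -0.04, or 0.08 with quantile normalisation and 0.14 without pGIPZ replicate 1). With quantile normalisation 2 of them fell. Without shFOXA1 + KC7F2 replicate 2, or in a fit of these groups alone, 2 rose and 3 fell, and without pGIPZ replicate 2 also 3 fell. INSIG1, the sterol sensor's retention protein, was among the rises at 1.02, and SC5D, a late enzyme of the pathway, among the falls at -0.68.

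Some hypoxia targets were higher than in pGIPZ with KC7F2 present. Of 34 tested members 13 rose and 5 fell (median 0.26), and the falls came to 3 without pGIPZ replicate 1, without shFOXA1 + KC7F2 replicate 2 and in a fit of these groups alone. Promoters of 3 members that rose are shown for the core of the hypoxia response element, to which HIF binds. They are the 250 bases before the RefSeq gene start (GRCh38.p14), 5′ to 3′, with ACGTG and GCGTG on either strand in capitals, where neighbouring matches may overlap: ERO1A (chr14:52695559-52695808, minus strand), GBE1 (chr3:81761646-81761895, minus strand) and PPFIA4 (chr1:203026241-203026490, plus strand).
ERO1A: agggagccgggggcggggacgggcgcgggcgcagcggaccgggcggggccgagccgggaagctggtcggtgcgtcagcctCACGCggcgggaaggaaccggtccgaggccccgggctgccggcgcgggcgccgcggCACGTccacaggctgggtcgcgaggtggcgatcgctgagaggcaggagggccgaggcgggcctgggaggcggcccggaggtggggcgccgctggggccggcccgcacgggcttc
GBE1: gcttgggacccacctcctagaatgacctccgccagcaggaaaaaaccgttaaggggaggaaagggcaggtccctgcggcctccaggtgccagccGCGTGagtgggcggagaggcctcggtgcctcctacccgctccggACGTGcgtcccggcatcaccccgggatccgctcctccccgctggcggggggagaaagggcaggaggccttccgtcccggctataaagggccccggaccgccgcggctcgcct
PPFIA4: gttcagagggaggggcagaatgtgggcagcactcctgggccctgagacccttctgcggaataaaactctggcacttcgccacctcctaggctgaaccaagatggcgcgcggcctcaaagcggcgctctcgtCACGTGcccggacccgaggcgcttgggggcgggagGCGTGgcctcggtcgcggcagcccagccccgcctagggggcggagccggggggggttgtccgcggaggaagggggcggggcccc
Of the 28 hypoxia targets with a RefSeq promoter, 22 held the core (78.6%), against 43.1% of all 27305 promoters; the core contains CG, and base composition was not matched. ERO1A, the oxidase that forms disulphides in the endoplasmic reticulum, was at 23.1, 24.1 and 22.4 RPKM in shFOXA1 + KC7F2 and 8.93, 9.22 and 9.198 RPKM in pGIPZ (log2 fold change 1.30 ± 0.11, adjusted p = 1.7e-07). GBE1, the glycogen branching enzyme, was at 28.7, 27.7 and 24.2 RPKM in shFOXA1 + KC7F2 and 7.81, 8.41 and 9.48 RPKM in pGIPZ (log2 fold change 1.59 ± 0.13, adjusted p = 2.5e-07). PPFIA4, a liprin, was at 2.99, 3.598 and 3.56 RPKM in shFOXA1 + KC7F2 and 1.22, 1.19 and 1.36 RPKM in pGIPZ (log2 fold change 1.14 ± 0.17, adjusted p = 7.8e-05). In all 3 genes the treated libraries lay above the controls without overlap, and shFOXA1 alone averaged 30.4, 31.1 and 4.098 RPKM. NDRG1, a hypoxia- and androgen-responsive gene, went the other way, at 89.9, 78.4 and 85.99 RPKM in shFOXA1 + KC7F2 and 142, 144 and 126 RPKM in pGIPZ (log2 fold change -0.69 ± 0.10, adjusted p = 5.2e-05).

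VEGFA, the angiogenic ligand, was at 37.8, 35.5 and 34.1 RPKM in shFOXA1 + KC7F2 and 26.6, 31.1 and 24.8 RPKM in pGIPZ. The VEGFA libraries did not overlap, but the call was marginal (log2 fold change 0.38 ± 0.14, adjusted p = 0.0499) and was lost under 10 other settings, among them leaving out any shFOXA1 + KC7F2 library or pGIPZ replicate 1 or 3. CA9, a carbonic anhydrase used as a hypoxia marker, stayed below the filter, at 0.1399, 0.0961 and 0.367 RPKM in shFOXA1 + KC7F2 and 0.0566, 0.111 and 0.2495 RPKM in pGIPZ, and was not tested. LDHA, lactate dehydrogenase A, named after its values were seen, was at 229, 227 and 220.2 RPKM in shFOXA1 + KC7F2, 361, 348 and 342 RPKM in shFOXA1 and 213, 193 and 178 RPKM in pGIPZ. LDHA in shFOXA1 + KC7F2 differed from shFOXA1 (log2 fold change -0.64, adjusted p = 0.0022) and not detectably from pGIPZ (log2 fold change 0.21, adjusted p = 0.16). Of 21 glycolysis enzymes 4 rose and 3 fell (median 0.10), and 11 rose with quantile normalisation. ENO2 and ALDOC, the neuronal-type enolase and aldolase, rose by 1.11 and 0.67, and LDHB fell by 1.36. Of the 18 regulators of the HIF pathway 4 rose and 2 fell (median 0.13, or -0.00 without pGIPZ replicate 1; 5 fell without pGIPZ replicate 3): after HIF1A itself came EPAS1, its HIF2A counterpart, at 0.99, and the feedback inhibitor CITED2 at 0.52.

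**Figure D2:**
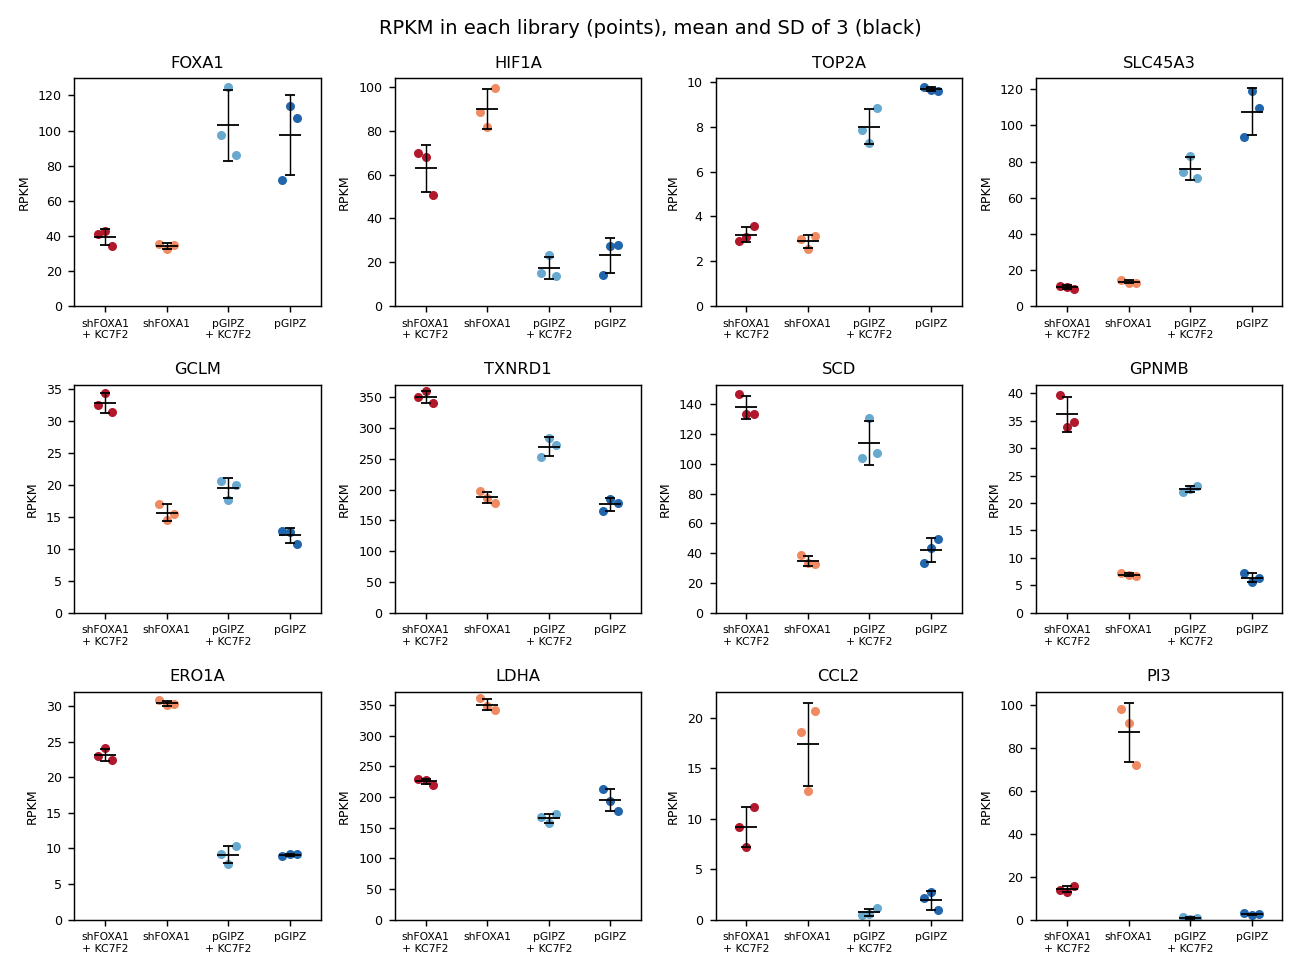
Each panel gives the RPKM of 1 gene in the 3 libraries of shFOXA1 + KC7F2, shFOXA1, pGIPZ + KC7F2 and pGIPZ; black marks are the mean and SD of 3, and every y axis starts at 0. SCD and GPNMB are high in both KC7F2 groups, TOP2A, SLC45A3 and FOXA1 are low in both shFOXA1 groups, and LDHA and PI3 are highest in shFOXA1 without the inhibitor.

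More squamous, basal and secreted defence genes rose than fell. Of 16 tested basal and squamous markers 10 rose and 1 fell (median 0.86), while the basal definers KRT5 and TP63 stayed below the filter. KRT16, a keratin of stressed epidermis, was at 3.74, 3.92 and 5.32 RPKM in shFOXA1 + KC7F2 and 0.0513, 0.151 and 0 RPKM in pGIPZ (log2 fold change 3.08 ± 0.17, adjusted p = 1.8e-09); keratin paralogs are alike and may share reads. LAMB3, a chain of laminin-332, was at 9.07, 8.81 and 9.11 RPKM in shFOXA1 + KC7F2 and 1.27, 1.75 and 1.21 RPKM in pGIPZ (log2 fold change 2.33 ± 0.13, adjusted p = 1.6e-09). Involucrin (IVL), a protein of the cornified envelope, and stratifin (SFN) averaged 4.78 ± 0.925 and 11.1 ± 1.11 RPKM in shFOXA1 + KC7F2 and 0.128 ± 0.04998 and 1.76 ± 0.838 RPKM in pGIPZ. Of 17 secreted defence and S100 genes 9 rose and 3 fell (median 1.18), and 1 fell without shFOXA1 + KC7F2 replicate 2. S100A9, a subunit of calprotectin, was at 13.8, 15.3 and 12.7 RPKM in shFOXA1 + KC7F2 and 0.915, 1.197 and 0.672 RPKM in pGIPZ (log2 fold change 3.35 ± 0.20, adjusted p = 3.4e-09). SAA1, an acute-phase apolipoprotein close in sequence to SAA2, averaged 15.6 ± 1.75 RPKM in shFOXA1 + KC7F2 and 1.94 ± 0.693 RPKM in pGIPZ (log2 fold change 2.75 ± 0.20, adjusted p = 4.6e-08). Leukocyte markers, given above, stayed below 1 RPKM in the same libraries.

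CCL2, the monocyte-attracting chemokine, was at 9.17, 7.2 and 11.2 RPKM in shFOXA1 + KC7F2 and 2.12, 2.77 and 0.908 RPKM in pGIPZ (log2 fold change 2.06 ± 0.28, adjusted p = 3.8e-05), with no overlap. shFOXA1 alone averaged 17.3 ± 4.14 RPKM and pGIPZ + KC7F2 0.717 ± 0.345 RPKM. CXCL2 and CXCL8, which attract neutrophils, rose by 1.77 and 1.03, and GDF15 fell by 0.50, a call that 9 other settings ended or turned, quantile normalisation giving 0.02. In total 3 of 11 tested chemokine and cytokine genes rose and 1 fell (median -0.07, above 0 with quantile normalisation or without pGIPZ replicate 1). Among 13 NF-kB feedback genes 7 rose and 0 fell (median 0.32; 4 rose in a fit of these groups alone), led by the mitochondrial dismutase SOD2 at 1.27 and the kinase MAP3K8 at 1.07. FOSL2, an AP-1 subunit, averaged 69.1 ± 4.46 RPKM in shFOXA1 + KC7F2 and 13.98 ± 3.32 RPKM in pGIPZ (log2 fold change 2.29 ± 0.14, adjusted p = 5.7e-09), and the MAP kinase phosphatase DUSP4 fell by 1.33; of 14 AP-1 and immediate early genes 4 rose, or 7 with quantile normalisation, and 2 fell (median 0.27). TGFB3 rose by 2.28 and ID2 by 1.13, within a TGF-beta list of 19 in which 5 rose and 2 fell (median 0.05); with at least 5 RPKM in 3 libraries asked for, 2 rose. EGFR rose by 0.85 (adjusted p = 0.043, lost under 7 other settings).

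In several lists of metabolism and protein quality the share that fell was near or below the 17.4% of all genes: 20.8% in endoplasmic reticulum stress, 20% in interferon, 16.7% in heat shock, 14.3% in metallothionein and 11.1% in proteasome genes. Of 33 ATF4 and amino acid supply genes 13 fell and 3 rose (median -0.27): the serine enzyme PSAT1, the mitochondrial folate enzyme MTHFD2 and asparagine synthetase ASNS fell by 1.17, 1.17 and 0.78, and the rises included SLC7A11 and its partner chain SLC3A2 at 0.83, which together import cystine. Of 25 lysosome and autophagy genes 9 rose and 0 fell (median 0.24). GPNMB, a lysosomal glycoprotein of pigment cells and macrophages, was at 39.7, 33.9 and 34.8 RPKM in shFOXA1 + KC7F2 and 7.19, 5.65 and 6.31 RPKM in pGIPZ (log2 fold change 2.42 ± 0.11, adjusted p = 3.2e-10). The cargo receptor SQSTM1 and the protease CTSD rose by 0.79 and 0.67. Of 30 respiratory chain subunits 10 fell and 0 rose (median -0.39), but 4 fell without pGIPZ replicate 1, 5 without shFOXA1 + KC7F2 replicate 2, 19 without pGIPZ replicate 3 and 3 in a fit of these groups alone; pGIPZ replicate 1 was the control with more short-gene signal. Of 27 proteasome subunits 3 fell (median -0.20, or 0.03 with quantile normalisation), 1 without pGIPZ replicate 1 and 8 without pGIPZ replicate 3. Of 24 endoplasmic reticulum stress genes 5 fell and 4 rose (median -0.14), with 1 to 3 falling when shFOXA1 + KC7F2 replicate 1 or 2 or pGIPZ replicate 1 or 2 was left out, and 10 without pGIPZ replicate 3; the lectin chaperone CALR fell by 0.97 and DNAJB9 rose by 0.90. Of 24 p53 targets 6 fell and 0 rose (median -0.20; 3 rose with quantile normalisation), among them TP53INP1 at -0.76. Of 18 heat shock genes 4 rose and 3 fell (median 0.00), CRYAB and HSPB8 rising by 3.30 and 1.85. Of 25 interferon genes 5 fell and 0 rose (median 0.01), or 3 fell without shFOXA1 + KC7F2 replicate 3 or pGIPZ replicate 1 and 2 without pGIPZ replicate 2, with IRF1 at -0.64. Of 7 metallothionein and zinc genes 1 fell, MT1X at -0.96 (median -0.19); of 9 metalloproteinases and inhibitors 2 rose, MMP15 and TIMP2, at 0.57 and 0.45 (median 0.39); and of 7 ERBB genes 2 rose (median 0.18), and 0 without shFOXA1 + KC7F2 replicate 1 or 3 or pGIPZ replicate 1. The calls of SNAI1, SNAI2 and TIMP2 were each lost under 1 or 2 other settings.

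**Figure D3:**
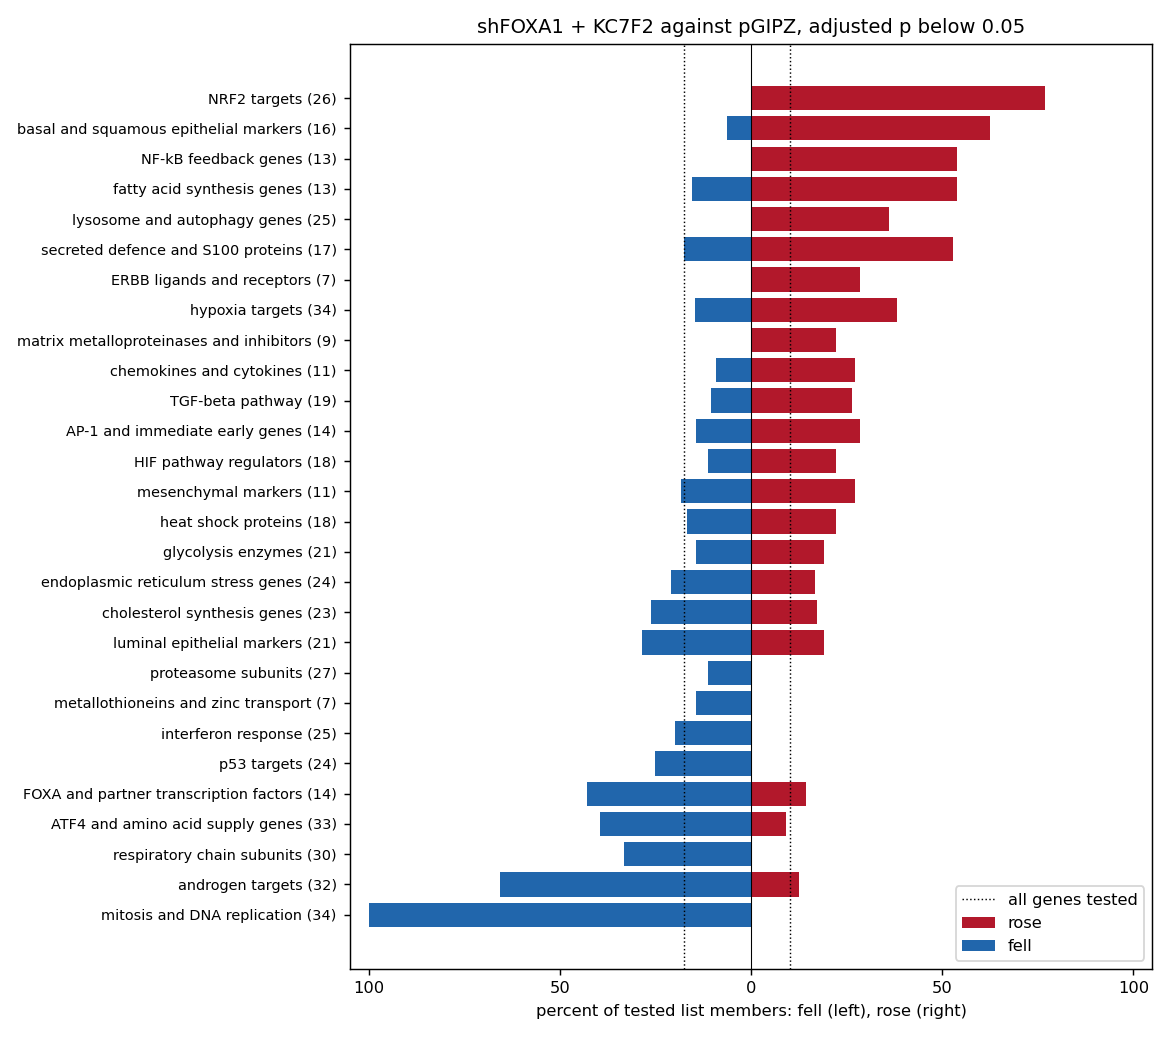
For each gene list the bars give the percent of its tested members (number in brackets) that fell, in blue to the left, and rose, in red to the right, in shFOXA1 + KC7F2 against pGIPZ at an adjusted p below 0.05. Dotted lines mark the 10.1% of all genes that rose and the 17.4% that fell. NRF2 targets stand at the top with 20 of 26 risen, and mitosis and DNA replication at the bottom with 34 of 34 fallen.

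shFOXA1 + KC7F2 against shFOXA1 alone shows the cells with KC7F2 against those without it, both with FOXA1 knocked down. The inhibitor came with more NRF2 and lipid mRNA and with less squamous, defence, p53 and androgen-target mRNA. Of 12900 genes 220 (1.71%) rose and 306 (2.37%) fell, 526 (4.08%) in all, and the median of all genes was -0.01. The count fell to between 306 and 357 when any of these 6 libraries was left out.

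GPNMB had the smallest adjusted p: it was at 39.7, 33.9 and 34.8 RPKM in shFOXA1 + KC7F2 and 7.28, 6.81 and 6.78 RPKM in shFOXA1 (log2 fold change 2.29 ± 0.11, adjusted p = 7.1e-09). SCD was at 147, 133 and 134 RPKM in shFOXA1 + KC7F2 and 38.7, 33.4 and 32.7 RPKM in shFOXA1 (log2 fold change 1.97 ± 0.13, adjusted p = 2.9e-07). SLC7A11 was at 44.9, 47.1 and 43.02 RPKM in shFOXA1 + KC7F2 and 15.8, 13.9 and 15.97 RPKM in shFOXA1 (log2 fold change 1.54 ± 0.11, adjusted p = 3.2e-07). All 3 were higher with the inhibitor, by 2.9-fold to 4.91-fold on the log2(RPKM + 0.5) scale, and libraries that do not overlap were a condition of their choice. On the falling side, KRT16 was at 3.74, 3.92 and 5.32 RPKM in shFOXA1 + KC7F2 and 38.96, 49.2 and 39.5 RPKM in shFOXA1 (log2 fold change -3.17 ± 0.17, adjusted p = 1.7e-08), so the keratin kept 11.1% of the shFOXA1 level and still stood above pGIPZ. CPT1A was at 27.5, 24.2 and 25.6 RPKM in shFOXA1 + KC7F2 and 57.2, 62.05 and 60.9 RPKM in shFOXA1 (log2 fold change -1.20 ± 0.08, adjusted p = 2.9e-07). CPT1A was lowest in shFOXA1 + KC7F2 among the 4 groups, at a mean of 37.5 RPKM in pGIPZ + KC7F2.

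By lists, 19 of 26 NRF2 targets rose and 0 fell (median 0.74), with NQO1, a quinone reductase, at 204 ± 8.91 RPKM in shFOXA1 + KC7F2 and 95.6 ± 3.26 RPKM in shFOXA1 (log2 fold change 1.09 ± 0.12, adjusted p = 3.7e-05). HMOX1 was not among them (log2 fold change -0.01, adjusted p = 0.98). Of 13 fatty acid genes 7 rose and 0 fell (median 0.59), though 3 rose when shFOXA1 + KC7F2 replicate 1 or 2, or shFOXA1 replicate 2 or 3, was left out; SREBF1 rose by 1.35. Of 23 cholesterol genes 7 rose and 0 fell (median 0.36), INSIG1 by 1.20. Of 25 lysosome genes 6 rose and 0 fell (median 0.30), or 2 without shFOXA1 + KC7F2 replicate 1 and 3 without shFOXA1 + KC7F2 replicate 2 or 3 or shFOXA1 replicate 2 or 3. Of 33 ATF4 genes 5 rose and 0 fell (median -0.02; 3 rose without shFOXA1 replicate 1). Among those DDIT3, the stress factor CHOP, was at 23.6, 22.3 and 25.4 RPKM in shFOXA1 + KC7F2 and 9.26, 12.2 and 13.8 RPKM in shFOXA1 (log2 fold change 1.00 ± 0.21, adjusted p = 0.0094).

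Falls gathered elsewhere. Of 17 secreted defence and S100 genes 10 fell and 0 rose (median -1.25). PI3, the elastase inhibitor elafin, was at 13.7, 12.9 and 15.7 RPKM in shFOXA1 + KC7F2, 98.2, 91.9 and 71.9 RPKM in shFOXA1 and 2.86, 2.34 and 2.45 RPKM in pGIPZ (log2 fold change -2.58 ± 0.21, adjusted p = 2.4e-06 against shFOXA1). S100A9 was at 13.8, 15.3 and 12.7 RPKM in shFOXA1 + KC7F2 and 50.6, 53.4 and 42.6 RPKM in shFOXA1 (log2 fold change -1.77 ± 0.20, adjusted p = 4.0e-05). S100A8, its calprotectin partner, was at 0.416, 2.86 and 1.31 RPKM in shFOXA1 + KC7F2 and 16.4, 19.7 and 10.3 RPKM in shFOXA1 (log2 fold change -3.13 ± 0.46, adjusted p = 6.1e-04), and is listed at 0 in all 3 pGIPZ libraries. These defence genes thus lay between shFOXA1 and pGIPZ. Of 16 basal and squamous markers 7 fell and 0 rose (median -0.48; 4 fell with at least 5 RPKM in 3 libraries asked for), KRT6B by 2.44 and COL17A1, the hemidesmosome collagen, by 1.55; IVL did not differ detectably (log2 fold change 0.10, adjusted p = 0.87). Of 11 chemokine and cytokine genes 4 fell and 0 rose (median -0.72), or 2 when shFOXA1 + KC7F2 replicate 1 or 2 or any shFOXA1 library was left out. CXCL8 fell by 1.25, and CCL2 missed the threshold at -0.88 (adjusted p = 0.097).

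Hypoxia targets were lower than in shFOXA1 in 6 of 34 cases and higher in 1 (median -0.22). PDK1, the kinase that closes pyruvate dehydrogenase, was at 10.3, 10.9 and 10.8 RPKM in shFOXA1 + KC7F2, 18.95, 16.5 and 16.2 RPKM in shFOXA1 and 11.3, 12.1 and 11.8 RPKM in pGIPZ (log2 fold change -0.66 ± 0.09, adjusted p = 4.8e-04 against shFOXA1). The other 5 falls were P4HA2, CITED2, NDRG1, PFKFB4 and PFKFB3, and the rise was ANGPT2 at 0.94. ERO1A just missed the threshold at -0.39 (adjusted p = 0.053), passing it under 7 other settings, and GBE1 did not differ detectably (log2 fold change -0.21, adjusted p = 0.50). Of 21 glycolysis enzymes 4 fell and 0 rose (median -0.26), led by LDHA at -0.64; 1 fell without shFOXA1 + KC7F2 replicate 1, 2 or 3 or shFOXA1 replicate 2 or 3, and 7 fell with length and GC trends removed. Of 32 androgen targets 14 fell and 2 rose (median -0.27; 9 fell without shFOXA1 replicate 3): HPGD fell further by 0.96 and TARP by 0.96 (lost under 3 other settings), while KLK3 did not differ detectably (log2 fold change 0.00, adjusted p = 1.00). Of 24 p53 targets 7 fell and 0 rose (median -0.35; 4 fell without shFOXA1 + KC7F2 replicate 3). CDKN1A, the p21 inhibitor of cyclin kinases, was at 269, 248 and 246 RPKM in shFOXA1 + KC7F2, 376, 355 and 366 RPKM in shFOXA1 and 236, 208 and 188 RPKM in pGIPZ (log2 fold change -0.52 ± 0.11, adjusted p = 0.013 against shFOXA1). Mitosis, respiratory chain and proteasome lists had 0 limma calls, and 3, 0 and 0 members with an unadjusted p below 0.05.

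**Figure D4:**
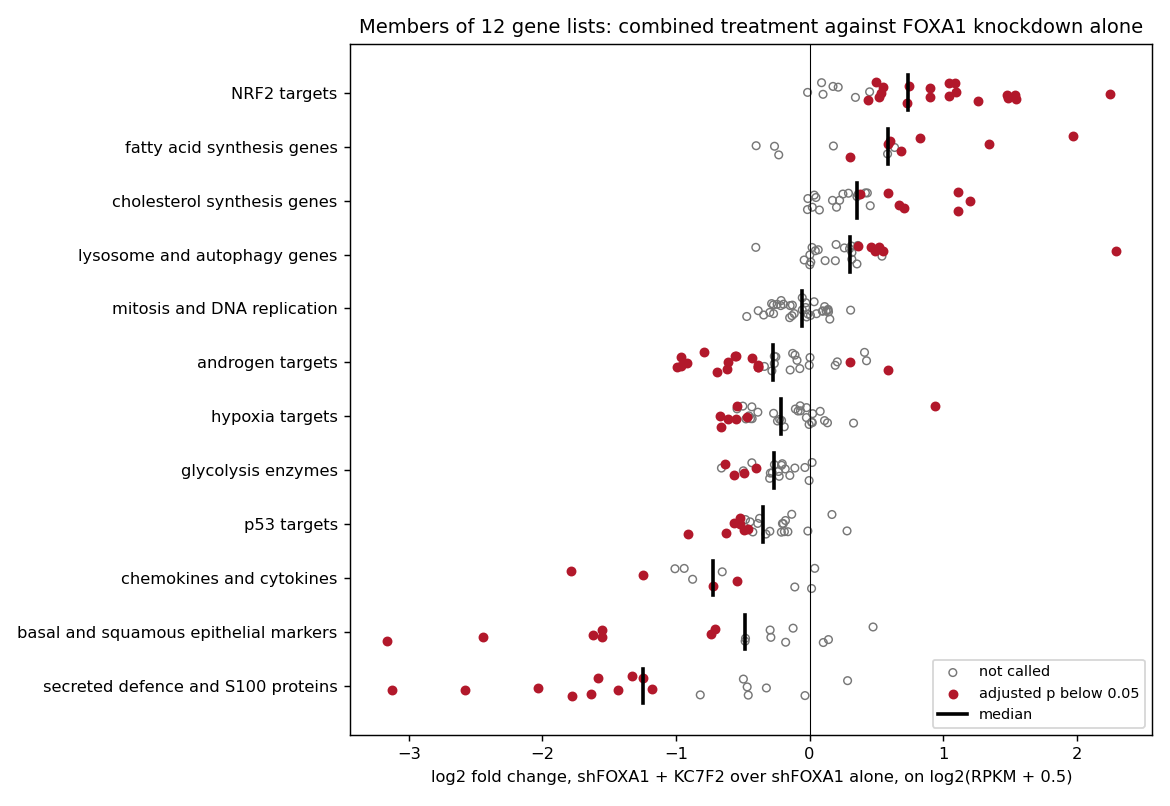
Each point is 1 tested member of a gene list; the x axis is its log2 fold change in shFOXA1 + KC7F2 over shFOXA1 alone on log2(RPKM + 0.5), filled points have an adjusted p below 0.05 and the black bar is the list's median. NRF2 targets have a median of 0.74 and lie right of 0 for 25 of 26, and secreted defence and S100 genes have a median of -1.25.

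shFOXA1 + KC7F2 against pGIPZ + KC7F2 compares FOXA1 knockdown with control vector where both held the inhibitor. All 34 listed mitosis genes measured fell, androgen targets changed in both directions, and among basal or squamous and secreted defence genes more rose than fell. Of 12900 genes 1145 (8.88%) rose and 3105 (24.1%) fell, 4250 (32.9%) in all. Those falls depend on scaling: pGIPZ + KC7F2 replicates 1 and 3 are 2 further libraries with more short-gene signal, the median of all genes was -0.15, and median-ratio scaling gave 1875 rises and 1824 falls. Without pGIPZ + KC7F2 replicate 1 the count was 2811, and without the 3 libraries with more short-gene signal, which leaves pGIPZ + KC7F2 with replicate 2 alone, it was 1791.

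ENC1, ST3GAL1, RGS4, S1PR3 and ACPP, among the 6 genes with the smallest adjusted p, kept their direction under those settings. ENC1 was at 71.4, 69.7 and 68.2 RPKM in shFOXA1 + KC7F2 and 6.79, 7.899 and 7.38 RPKM in pGIPZ + KC7F2 (log2 fold change 3.16 ± 0.08, adjusted p = 3.3e-13). ST3GAL1, a sialyltransferase, was at 17.6, 18.2 and 17.3 RPKM in shFOXA1 + KC7F2 and 74, 85.8 and 73.1 RPKM in pGIPZ + KC7F2 (log2 fold change -2.10 ± 0.09, adjusted p = 3.1e-10). RGS4 and S1PR3 rose by 4.45 and 3.75, and ACPP fell by 2.61. The lists gave 34 falls of 34 mitosis genes (median -1.35), 17 falls (53.1%) and 8 rises (25%) of 32 androgen targets (median -0.31), 9 rises and 0 falls of 16 basal and squamous markers, 9 rises and 3 falls of 17 secreted defence and S100 genes (median 1.45; 1 fell without the 3 libraries), 17 rises and 2 falls of 34 hypoxia targets (median 0.32), and 10 rises and 1 fall of 26 NRF2 targets (median 0.17). With quantile normalisation 13 androgen targets and 17 NRF2 targets rose, and without pGIPZ + KC7F2 replicate 2, 3 NRF2 targets fell. FKBP5, an androgen- and glucocorticoid-driven chaperone, was the androgen target with the largest rise, at 41.1, 40.2 and 39.4 RPKM in shFOXA1 + KC7F2 and 8.299, 9.52 and 9.35 RPKM in pGIPZ + KC7F2 (log2 fold change 2.09 ± 0.10, adjusted p = 5.5e-10).

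Whether KC7F2 acted differently after FOXA1 knockdown was tested by the interaction term, the log2 fold change for KC7F2 in shFOXA1 cells minus that in pGIPZ cells. It was called for 10 of 12900 genes (0.0775%), 2 up (0.0155%) and 8 down (0.062%), and 872 (6.76%) had an unadjusted p below 0.05. KRT16, at 3.74, 3.92 and 5.32 RPKM in shFOXA1 + KC7F2, 38.96, 49.2 and 39.5 RPKM in shFOXA1, 0.145, 0.0524 and 0.0601 RPKM in pGIPZ + KC7F2 and 0.0513, 0.151 and 0 RPKM in pGIPZ, had an interaction of -3.22 ± 0.24 (SE, adjusted p = 4.9e-06). ENC1 had -1.22 ± 0.12 (adjusted p = 7.2e-05): it was 50% of the shFOXA1 level in shFOXA1 + KC7F2 and 7.36 ± 0.555 RPKM in pGIPZ + KC7F2 against 6.23 ± 0.3905 RPKM in pGIPZ. These 2 calls held under every alternative run. KRT16, NRCAM and COL17A1 were near 0 in pGIPZ and pGIPZ + KC7F2, where a further fall could not be seen on this scale. MAF, a leucine zipper factor, was at 5.2, 5.8 and 5.31 RPKM in shFOXA1 + KC7F2, 10.6, 10.7 and 10.7 RPKM in shFOXA1, 2.38, 2.58 and 2.505 RPKM in pGIPZ + KC7F2 and 10.3, 9.79 and 8.75 RPKM in pGIPZ (interaction 0.84 ± 0.12, adjusted p = 0.017). KC7F2 was thus linked with lower MAF in both backgrounds, with the larger fall in pGIPZ; 8 other settings ended this call. The adhesion gene NRCAM, the surface glycoprotein gene CD24 and S100A9 had interactions of -1.37, -1.15 and -1.62, with adjusted p of 0.037, 0.045 and 0.045, each lost under 14 or 15 of the other settings. The remaining 4 calls, COL17A1, ITGA6, ATP2B1 and ENDOD1, were each lost under 16. In the NRF2, fatty acid and cholesterol lists there were 0 interaction calls by limma, 5, 3 and 0 members with an unadjusted p below 0.05, and median interactions of 0.10, -0.00 and -0.00, which does not show that the responses were alike. Other lists had more: 13 of 32 androgen targets (median interaction 0.31) and 10 of 17 secreted defence and S100 genes (-0.91) had such a p. So had 9 of 21 glycolysis enzymes (-0.36) and 7 of 16 basal and squamous markers (-0.26), against 6.76% of all genes. Defence genes such as S100A8 and S100A9, like the basal markers KRT16 and COL17A1, were low in pGIPZ. A further fall with KC7F2 could hardly be seen there, so the medians of those lists cannot by themselves show a different response.

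**Figure D5:**
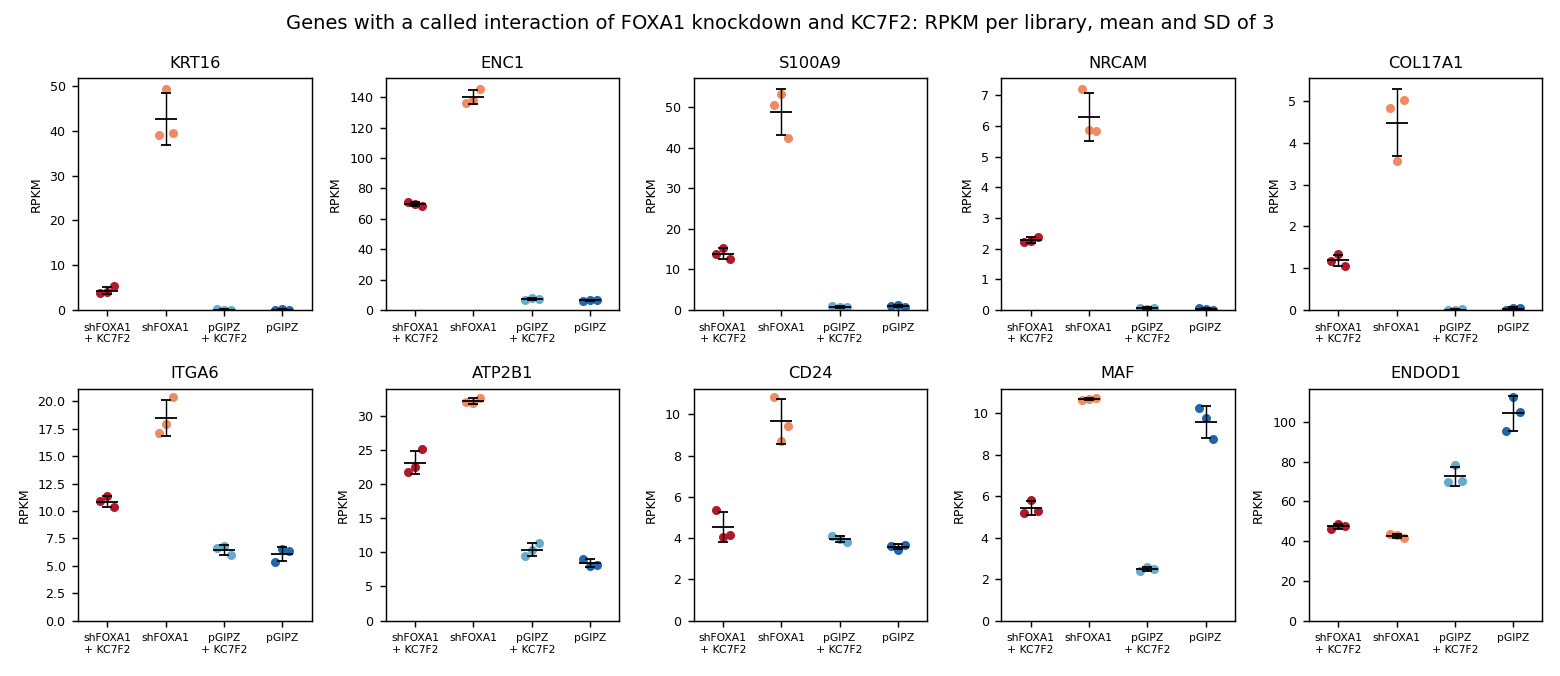
Each panel gives the RPKM of 1 of the 10 genes with a called interaction in the 3 libraries of shFOXA1 + KC7F2, shFOXA1, pGIPZ + KC7F2 and pGIPZ; black marks are the mean and SD of 3 and y axes start at 0. KRT16, ENC1, S100A9, NRCAM, COL17A1, ITGA6, ATP2B1 and CD24 are highest in shFOXA1, MAF is lowest in pGIPZ + KC7F2, and ENDOD1 is low in both shFOXA1 groups.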

How the data were processed

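RNA from LNCaP cells was sequenced in 18 libraries, 6 groups of 3. The deposited values are the authors' RPKM per gene. Reads had been mapped with STAR against hg38, according to the submitters' processing notes; how genes were counted, with which annotation and strand setting, is not given in the sources used. Of 26475 lines 32 had no value. Values were analysed as log2(RPKM + 0.5) for 12900 genes with at least 1 RPKM in 3 libraries, without rescaling. limma 3.58.1 (R 4.3.3, eBayes with intensity trend, two-sided) fitted 1 model over 6 groups with 12 residual degrees of freedom; Benjamini-Hochberg adjustment ran within each comparison, not across them, and genes were called below 0.05. A log2 fold change on this scale understates changes of low genes; percent of control and folds are on it too.

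Members and the 33 gene lists were chosen with earlier results of these data known. The text names FOXA1, HIF1A, CCL2, VEGFA, CA9, KLK3, the 10 largest rises and falls called in shFOXA1 + KC7F2 against pGIPZ (mean of at least 5 RPKM in 1 group, no overlap, no small RNA genes), the 6 smallest adjusted p elsewhere and up to 4 members per list; other genes were named after their values were seen, and some genes of the rule are not reported here. Depth was recovered as the read total for which low values of genes up to 200 nt are whole within 2% (83.3 to 90% of those values in shFOXA1 + KC7F2, 86.6 to 88.4% in pGIPZ). Positions come from GENCODE by symbol and promoters from RefSeq (GRCh38.p14). In simulated data of this design 33 of 63 changes of 1.5-fold, 53 of 68 of 2-fold and 67 of 69 of 4-fold were called, with 10 false calls among 163 (12384 genes run). The simulation changed far fewer genes than were called in the data and had independent noise without library-wide effects, so its rates may not carry over. Other settings tried were a pseudocount of 0.1 or 1, no filter or 5 RPKM, median-ratio scaling, quantile normalisation, robust eBayes, these groups alone, a replicate block, removal of length and GC trends, and leaving out libraries. Python 3.11.15 with numpy 2.4.6, pandas 2.3.3 and matplotlib 3.10.9 drew the figures.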

Additional observations from a re-analysis of the deposited data

Results flagged for a closer look

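For 10 genes the interaction term of the limma fit was called, that is, the change with KC7F2 differed between shFOXA1 and pGIPZ cells. Of these calls only those of KRT16 and ENC1 held under every alternative run. The log2 interactions were -3.22 for KRT16, -1.22 for ENC1, -1.37 for NRCAM, -1.15 for CD24, -1.62 for S100A9, -0.76 for the calcium pump ATP2B1, -1.48 for COL17A1 and -0.83 for the integrin ITGA6, and 0.84 for MAF and 0.66 for ENDOD1. The 8 negative ones were lower in shFOXA1 + KC7F2 than in shFOXA1 (from -3.17 for KRT16 to -0.47 for ATP2B1 on the log2 scale) and were not called in pGIPZ + KC7F2 against pGIPZ, where adjusted p lay between 0.16 and 0.93. ENDOD1 fell in pGIPZ + KC7F2 against pGIPZ (log2 fold change -0.52, adjusted p = 0.0017) and was not called in shFOXA1 + KC7F2 against shFOXA1 (log2 fold change 0.15, adjusted p = 0.41). No cause was tested.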

How the results depend on the processing

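Of 298 gene results, 235 stayed on their side of the threshold under all alternatives run and 63 did not. Values that were not called could also turn their sign. Most of these genes were picked by p or size of change in these same data, so such shares do not describe all genes. The call that turned its sign was GDF15 in shFOXA1 + KC7F2 against pGIPZ, 0.021 with quantile normalisation. Of 195 called results 154 stayed called. The 3539 calls of shFOXA1 + KC7F2 against pGIPZ became 2094 in a fit of those groups alone. Such fits have fewer residual degrees of freedom, yet they gave 448 calls against shFOXA1 and 4195 against pGIPZ + KC7F2. Those counts lay nearer to the 526 and 4250 of the main fit. What made the first count drop more was not tested. The 526 calls against shFOXA1 ranged over 306 to 357 with a library left out. The 4250 calls against pGIPZ + KC7F2 ranged over 2811 to 4321 with a library left out and were 1791 without the 3 libraries with more short-gene signal. The 10 interactions became 3 with a pseudocount of 0.1, 27 with 1, 27 with no filter, 25 with quantile normalisation, 28 with length and GC trends removed, 2 without the 3 libraries, 2 with these groups alone, and 2 to 23 with a library left out (23 without pGIPZ replicate 1). Deviations of same-numbered libraries from their group means had r of -0.10, 0.09 and -0.17 between shFOXA1 + KC7F2 and pGIPZ. Between pGIPZ + KC7F2 and pGIPZ they had r of 0.25, 0.18 and -0.21, where differently numbered libraries ran from -0.46 to 0.36. With 3 libraries per group such values cannot decide whether the numbers pair them. With a replicate block the counts were 3769, 556, 4452 and 9. Leaving out 1 library left an arm of 2. Without the 3 libraries pGIPZ + KC7F2 has 1 library and pGIPZ 2, with the lone library assumed to vary like the other groups, so those counts do not measure the short-gene signal alone. Depth limits genes under about 1 RPKM.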

Other observations

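Genes outside the lists, chosen after their values were seen, also stood highest in shFOXA1 + KC7F2. CYP4F11, a fatty acid hydroxylase, was at 12.7, 12.1 and 10.96 RPKM in shFOXA1 + KC7F2, 5.05, 5.11 and 4.44 RPKM in shFOXA1, 8.09, 7.895 and 7.26 RPKM in pGIPZ + KC7F2 and 2.96, 3.92 and 4.48 RPKM in pGIPZ. LPIN1, the phosphatidate phosphatase of triglyceride synthesis, averaged 21.5 ± 0.793 RPKM in shFOXA1 + KC7F2, 9.83 ± 0.636 in shFOXA1, 13.5 ± 1.56 in pGIPZ + KC7F2 and 7.56 ± 0.665 in pGIPZ (SD, n = 3 each). ASPH, an aspartyl hydroxylase, averaged 47.2 ± 1.14 RPKM in shFOXA1 + KC7F2, 21.4 ± 0.814 in shFOXA1, 34.6 ± 1.96 in pGIPZ + KC7F2 and 20.2 ± 3.31 in pGIPZ. CYP1A2, a xenobiotic hydroxylase, was at 3.37, 3.06 and 2.52 RPKM in shFOXA1 + KC7F2 and 0.0563, 0.0552 and 0.062 RPKM in pGIPZ. CYP1A2 averaged 0.405 RPKM in shFOXA1 and 0.322 RPKM in pGIPZ + KC7F2, so all 4 genes were highest where both treatments were given. Their interaction terms were not called, the lowest adjusted p being 0.16.

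The microRNA gene MIR33B lies inside the SREBF1 locus in the annotation used. It was listed at 3.397, 4.67 and 3.57 RPKM in shFOXA1 + KC7F2, 1.35, 0 and 0 in shFOXA1, 3.45, 0 and 1.07 in pGIPZ + KC7F2 and 0.917, 0 and 0 in pGIPZ (log2 fold change 2.62 ± 0.70, adjusted p = 0.011, limma, shFOXA1 + KC7F2 against pGIPZ). Reads of its host cannot be told apart from its own here, and SREBF1 moved in the same libraries.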
